A study of Homo sapiens with 4 samples.

Results

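The 9 genes described here encode the NF-kB subunits (NFKB1, NFKB2, RELA, RELB and REL), the cytoplasmic IkB inhibitors (NFKBIA, NFKBIB and NFKBIE) and the ubiquitin-editing enzyme TNFAIP3. They were measured in the human line Kit225, T leukemia cells that depend on interleukin-2 (IL-2) and were grown in medium with 20 U/ml recombinant IL-2. Members were the probe sets of the Affymetrix HG-U133 Plus 2.0 array that the platform annotation gives to a single gene, that gene being listed. This gave 20 probe sets of 54675, for 9 genes of 19775. The listed genes differ in coverage, with 5 probe sets for REL, 3 each for NFKB2 and NFKBIB, 2 each for RELA, NFKBIA and TNFAIP3 and 1 each for NFKB1, RELB and NFKBIE.

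The tested cells received NC1153, described as an inhibitor of the kinase JAK3, at a labelled dose of 25 mM whose unit could not be checked here, and the other cells received 0.1% DMSO. Both exposures lasted 12 hours. Each condition has 2 arrays, numbered 1 and 2, of 4 in all. Nothing states whether these came from separate cultures, so p-values measure only the spread between these arrays, which may be technical. In RNA of whole cultures, fewer cells that express a gene and less of its RNA per cell cannot be told apart. The values are linear signals scaled to a common mean, and a log2 difference is NC1153 minus DMSO. The authors' scaling factors were 6.68 and 2.97 for NC1153 replicates 1 and 2, against 2.88 and 2.66 for DMSO replicates 1 and 2. Replicate 1 of NC1153 thus needed the strongest scaling. Its median signal after scaling was also the highest, at 88.6, against 61.8 for NC1153 replicate 2. The medians of DMSO replicates 1 and 2 were 69.7 and 69.5. The part of this in the differences below was not tested. The 3'/5' ratios of the actin probes, which rise as RNA is degraded, were 4.47 and 3.89 for NC1153 replicates 1 and 2, against 3.54 and 3.82 for DMSO replicates 1 and 2. Both NC1153 arrays thus lay above both DMSO arrays in this measure, while those of GAPDH were 0.93 and 0.92, against 0.91 and 0.94. The part of RNA quality in the differences below was not tested. Per the file headers the array names of equally numbered replicates share a number, whose meaning is not given in the sources used here.

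NF-kB is a family of dimeric transcription factors. NFKB1 and NFKB2 encode precursors that are trimmed to DNA-binding subunits, while RELA, RELB and REL encode subunits that also activate transcription. In resting cells IkB proteins hold the dimers in the cytoplasm. Signals from antigen receptors, TNF receptors or Toll-like receptors activate the IKK kinase complex, which marks the IkB proteins for destruction. Several members are themselves NF-kB target genes, NFKBIA and TNFAIP3 foremost, which closes a negative feedback loop. A slower branch acts through the kinase NIK, encoded by MAP3K14, and the processing of the NFKB2 precursor, and it serves RELB dimers.

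RefSeq promoter windows (GRCh38.p14, 250 bases before to 50 after a gene start, 300 in all) were at hand for 7 of the 9 genes, in 12 windows. The kB consensus, searched on both strands with overlapping matches kept, was found in 7 of the 12 windows, which belong to REL, NFKB1, TNFAIP3, NFKB2, NFKBIA and NFKBIB. It was found in 5.91% of all 35116 windows. Among the letters matched in member windows GGGAATTTCC was the most frequent form, and it was found on either strand in 4 member windows and in 0.145% of all windows. As this form was picked from the members, its count is a description. A match is a description of letters and does not show that a factor bound there in these cells. No window was at hand for NFKBIE and RELB, and the windows of RELA held 0 matches. Windows of NFKBIA, NFKB1 and NFKB2 are shown, and they were chosen after values and matches were seen. For NFKB1 and NFKB2 the window with the most matches is shown. Another NFKB1 window and another NFKB2 window held 0 matches, and a further NFKB2 window held 2, which begin 176 and 21 bases before that start. Each is written 5′ to 3′ along its gene, and capitals mark the kB consensus matches.
NFKBIA, chr14:35404700-35404999, minus strand: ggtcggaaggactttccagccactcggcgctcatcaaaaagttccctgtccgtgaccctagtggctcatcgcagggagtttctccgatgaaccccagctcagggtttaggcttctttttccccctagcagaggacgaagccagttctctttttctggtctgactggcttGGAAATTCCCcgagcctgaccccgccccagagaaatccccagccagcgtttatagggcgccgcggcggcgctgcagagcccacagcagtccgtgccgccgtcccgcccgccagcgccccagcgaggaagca
NFKB1, chr4:102501109-102501408, plus strand: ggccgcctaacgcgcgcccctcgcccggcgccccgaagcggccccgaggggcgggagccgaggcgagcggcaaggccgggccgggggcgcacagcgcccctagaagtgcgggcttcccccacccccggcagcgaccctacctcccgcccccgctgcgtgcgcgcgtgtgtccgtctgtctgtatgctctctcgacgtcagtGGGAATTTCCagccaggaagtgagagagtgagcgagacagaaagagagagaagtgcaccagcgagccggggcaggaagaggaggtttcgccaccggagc
NFKB2, chr10:102394328-102394627, plus strand: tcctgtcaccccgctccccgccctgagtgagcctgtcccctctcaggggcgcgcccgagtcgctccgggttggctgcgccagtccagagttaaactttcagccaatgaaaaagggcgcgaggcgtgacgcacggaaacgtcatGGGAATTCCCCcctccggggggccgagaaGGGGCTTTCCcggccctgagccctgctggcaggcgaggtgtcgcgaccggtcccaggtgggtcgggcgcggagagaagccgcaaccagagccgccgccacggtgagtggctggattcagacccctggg
The match in the NFKBIA window begins 81 bases before the gene start and that in the NFKB1 window 49 bases before it. In this NFKB2 window 3 matches begin 107, 106 and 78 bases before the start, of which the first and second overlap.

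No member differed past the threshold. With limma's moderated test over all 54613 non-control probe sets and Benjamini-Hochberg adjustment, 0 of the 20 member probe sets had an adjusted p under 0.05, where 3.72% of all probe sets did (1.94% higher, 1.78% lower). The lowest adjusted p among them was 0.090, for NFKBIA. At an unadjusted p under 0.05, 1 member probe set was higher with NC1153 (8.52% of all) and 4 were lower (7.32% of all), with 15.8% of all in either direction. The arrays of the conditions did not overlap for 11 of the 20 probe sets, 5 higher and 6 lower, against 22.8% higher and 21.2% lower over the whole array, 44.0% together. The 4 that were lower at an unadjusted p under 0.05 belong to NFKBIA, NFKBIE, NFKB1 and NFKBIB, and the higher one to NFKB2. None of the 20 is in the authors' deposited table of selected probe sets, which holds 4.12% of the tested ones.

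The member differences were centred near 0. Their median log2 difference was -0.01 over the 20 probe sets, against 0.02 over all tested ones, and the median absolute difference was 0.41 against 0.53. Read by the brightest probe set of each gene, 4 members were positive and 5 negative, with values between -0.69 and 0.38. On that reading 3 genes were lower at an unadjusted p under 0.05 (9.66% of all genes, 20.3% in either direction). The arrays did not overlap for 2 genes that were higher (24.5% of all) and 3 that were lower (23.8% of all). Precision differed widely within the set: the standard error of the difference lay between 0.14 and 1.22 on the log2 scale. For 8 of the 20 probe sets the 95% interval lay wholly within a log2 difference of -1 to 1, so a change of that size or more lay outside it. For 5 others the mean signal was below the median of all signals, 72.3, and their intervals were wide.

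**Figure D1:**
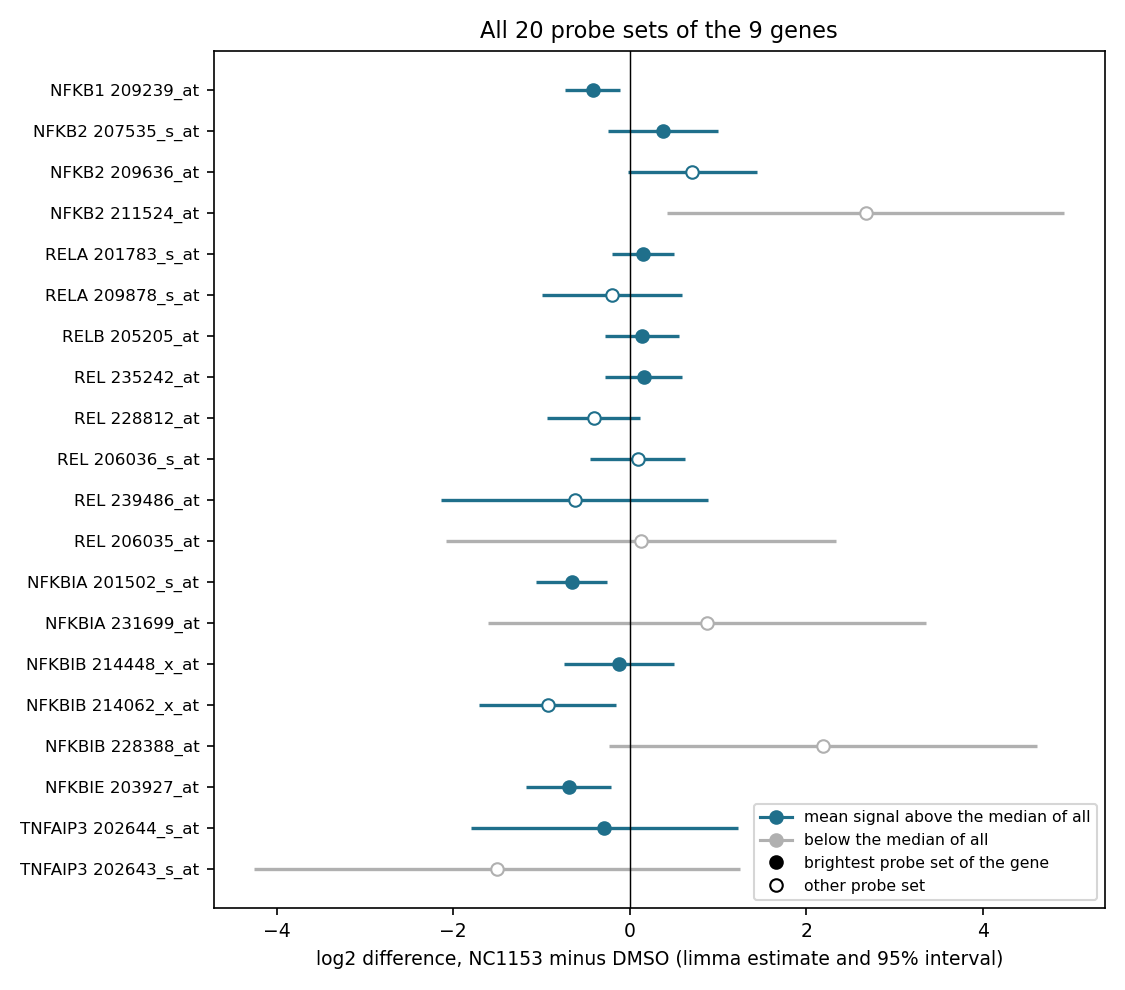
Log2 differences (NC1153 minus DMSO) of the 20 member probe sets with 95% intervals from limma, filled for the brightest probe set of each gene and grey for probe sets below the median signal. The intervals of NFKB1, NFKBIA 201502_s_at, NFKBIE, NFKBIB 214062_x_at and NFKB2 211524_at lie on a single side of 0, with no adjusted p under 0.05.

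Among the subunits, NFKB1 had the most precise value. Its probe set 209239_at had signals of 2823 and 2879 on NC1153 arrays 1 and 2, against 4062 and 3580 on DMSO arrays 1 and 2. Both NC1153 arrays lay below both DMSO arrays, and the NC1153 pair was nearly equal. The log2 difference was -0.42 (SE 0.14, 95% interval -0.73 to -0.11, limma adjusted p = 0.16). It was -0.53 within replicate 1 and -0.31 within replicate 2.

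NFKB2 went the other way in value on all 3 of its probe sets. The brightest, 207535_s_at, had signals of 646 and 408 with NC1153, against 352 and 441 with DMSO. Here the groups overlapped, with NC1153 replicate 1 high and replicate 2 between the DMSO arrays, and the log2 difference was 0.38 (SE 0.28, limma adjusted p = 0.59). That difference was 0.00025 with spike-in centring, described below. Leaving out single arrays gave it a range of 0.049 to 0.71, lowest without NC1153 replicate 1. Probe set 209636_at had 315 and 270 with NC1153, against 149 and 212 with DMSO. Its groups did not overlap, with a log2 difference of 0.71 (95% interval -0.02 to 1.45, limma adjusted p = 0.34). The dim probe set 211524_at had 114 and 71.1 with NC1153, against 23.1 and 8.62 with DMSO. That is a log2 difference of 2.68 (95% interval 0.43 to 4.92, limma adjusted p = 0.22), the widest gap of any member and also one of the least precise. The DMSO arrays alone differed by 1.42 on the log2 scale there. MAP3K14, the kinase gene that drives NFKB2 processing, was added after its values were seen, outside the rule for named genes, and had the largest difference of its list. It had a log2 difference of 0.93 (limma adjusted p = 0.19), with signals of 416 and 306 with NC1153, against 152 and 229 with DMSO.

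The activating subunits were close to level. RELA, the partner in the classical dimer, had signals of 1343 and 1356 on probe set 201783_s_at with NC1153, against 1279 and 1153 with DMSO. The groups did not overlap, but the log2 difference was 0.15 with a 95% interval of -0.20 to 0.51 (limma adjusted p = 0.75). RELB, the subunit of the slower branch, had 673 and 738 with NC1153, against 631 and 649 with DMSO. Its log2 difference was 0.14 (95% interval -0.28 to 0.56, limma adjusted p = 0.82). REL, the subunit best known in activated lymphocytes, had 752 and 829 on its brightest probe set 235242_at with NC1153, against 640 and 783 with DMSO. These groups overlapped, and the log2 difference was 0.16 (95% interval -0.28 to 0.60, limma adjusted p = 0.80). For all 3 genes the interval leaves out a log2 difference of 1 in either direction. With spike-in centring, described below, these small positive values became negative.

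Other probe sets of RELA and REL did not share a direction. The second RELA probe set, 209878_s_at, had 242 and 289 with NC1153, against 217 and 422 with DMSO, a log2 difference of -0.20 (SE 0.35). Of the 5 REL probe sets 3 were positive and 2 negative, between -0.62 and 0.16. Only 228812_at separated the groups, with 347 and 460 with NC1153, against 538 and 522 with DMSO, and its log2 difference was -0.41 (95% interval -0.93 to 0.12, limma adjusted p = 0.47). The dimmest, 206035_at, had 82.9 and 32.3 with NC1153, against 22.7 and 98.5 with DMSO, so its arrays differed more within a condition than between conditions.

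**Figure D2:**
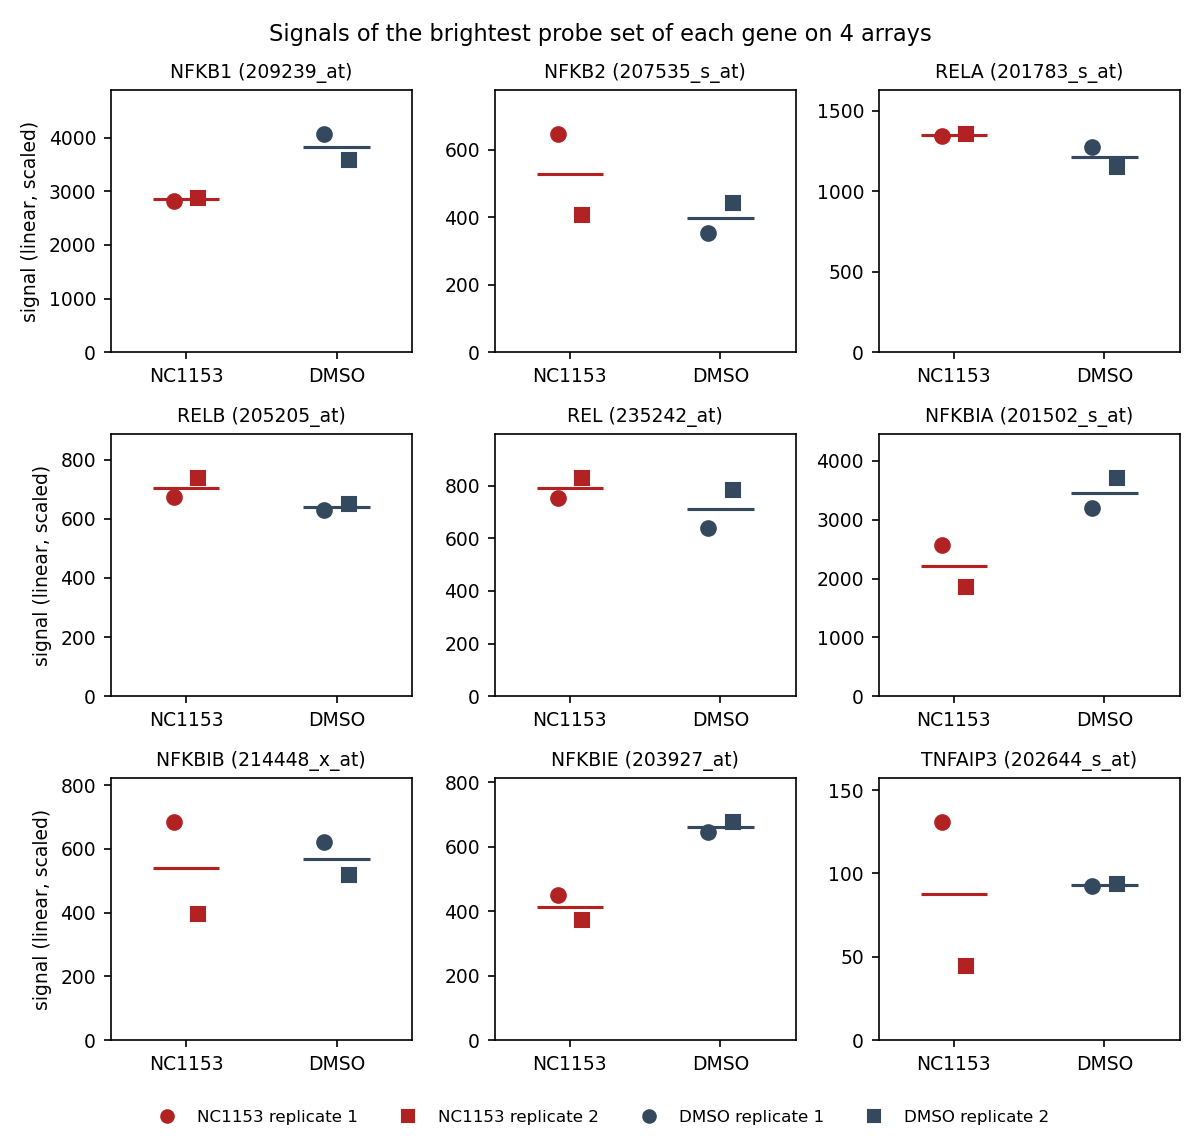
Scaled linear signals of the brightest probe set of each of the 9 genes, 1 panel a gene with its own axis from 0; points are arrays (circle replicate 1, square replicate 2) and lines are group means. NC1153 arrays lie below both DMSO arrays for NFKB1, NFKBIA and NFKBIE, above both for RELA and RELB, and overlap with them for NFKB2, REL, NFKBIB and TNFAIP3.

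Among the brightest probe sets of the inhibitors, those of NFKBIA and NFKBIE had the most negative differences. NFKBIA encodes IkB-alpha, the inhibitor that is broken down and remade fastest. Its probe set 201502_s_at had signals of 2579 and 1861 with NC1153, against 3207 and 3711 with DMSO. Both NC1153 arrays lay below both DMSO arrays, replicate 2 further than replicate 1. The means were 2220 ± 508 with NC1153 and 3459 ± 356 with DMSO (SD, n = 2 each). The log2 difference was -0.66 (SE 0.18, 95% interval -1.06 to -0.25, limma adjusted p = 0.090), a ratio of 0.635. Within replicate 1 it was -0.31 and within replicate 2 it was -1.0.

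NFKBIE encodes IkB-epsilon, an inhibitor that gives delayed negative feedback. It had 450 and 373 on probe set 203927_at with NC1153, against 645 and 677 with DMSO. The groups were apart by more than either's own spread, and the DMSO arrays were nearly equal. The log2 difference was -0.69 (SE 0.21, 95% interval -1.17 to -0.21, limma adjusted p = 0.13), with -0.52 within replicate 1 and -0.86 within replicate 2. The second NFKBIA probe set, 231699_at, was dim and high on a single array, with 91.1 and 20.5 with NC1153, against 19.3 and 28.7 with DMSO. Its log2 difference of 0.88 had a 95% interval of -1.60 to 3.36, which also holds the value of the brighter probe set.

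The 3 probe sets of NFKBIB, which encodes IkB-beta, disagreed. The brightest, 214448_x_at, had 685 and 397 with NC1153, against 621 and 517 with DMSO. Here the DMSO arrays lay between the NC1153 arrays, and the log2 difference was -0.12 (SE 0.28, limma adjusted p = 0.92). Probe set 214062_x_at had 142 and 257 with NC1153, against 335 and 395 with DMSO, a log2 difference of -0.93 (95% interval -1.71 to -0.15, limma adjusted p = 0.22). The dim 228388_at had 40.3 and 202 with NC1153, against 34.0 and 11.4 with DMSO, a log2 difference of 2.19 (limma adjusted p = 0.38) that rests mostly on NC1153 replicate 2. Names that end in _x_at mark probe sets whose probes can also match other transcripts, so the first and second are uncertain as measures of NFKBIB alone. No direction can be given for this gene.

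TNFAIP3 encodes A20, which removes and rebuilds ubiquitin chains on signalling proteins and so shuts the pathway off. Its signals were low on both probe sets. Probe set 202644_s_at had 131 and 44.3 with NC1153, against 92.3 and 93.4 with DMSO. The DMSO arrays were nearly equal and lay between the NC1153 arrays, with a log2 difference of -0.29 (95% interval -1.80 to 1.23, limma adjusted p = 0.92). Probe set 202643_s_at had 7.0 and 9.07 with NC1153, against 11.0 and 46.4 with DMSO, a log2 difference of -1.50 (SE 1.22, limma adjusted p = 0.65). At this precision a change of TNFAIP3 by a log2 difference of 1 in either direction was not detectable, since the interval of the brighter probe set holds both values.

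Inhibitor and subunit values can be set against each other within the same arrays, where a common scaling cancels. The log2 difference of NFKBIA minus that of RELA was -0.81, with -0.38 within replicate 1 and -1.23 within replicate 2. For NFKBIE against RELA it was -0.84, with -0.59 and -1.10 within replicates 1 and 2. For NFKB1 against RELA it was -0.57, with -0.60 and -0.55. All 3 gaps had the same sign within each replicate. That follows from the non-overlap of the arrays, lower for NFKBIA, NFKBIE and NFKB1 and higher for RELA, and adds nothing to it. The gaps use the brightest probe sets. The second probe sets of RELA and NFKBIA had the opposite signs, at -0.20 and 0.88. For NFKB2 against RELA the gap was 0.23, with opposite signs of 0.81 within replicate 1 and -0.35 within replicate 2. These gaps were chosen after the values were seen and carry no test.

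The calls of NFKBIA, NFKBIE and NFKB1 depended on the processing. Of the 6 member results that passed under another setting, 4 were of NFKBIA: spike-in centring (adjusted p = 0.023), leaving out dim probe sets (0.041), adding the replicate number to the limma fit as a block (0.016) and leaving out NC1153 replicate 1 (0.041). The block leaves 1 residual degree of freedom beside 20.3 prior ones. Without NC1153 replicate 1 the lone NC1153 array is assumed to vary like the DMSO pair. Other settings gave NFKBIA a higher adjusted p: it was 0.60 without a variance trend, 0.42 with median centring, 0.13 with quantile normalization, 0.31 without DMSO replicate 2 and 0.16 without NC1153 replicate 2, where the log2 difference was -0.42. Spike-in centring aligns the arrays on 18 bacterial and phage control probe sets. It moved the median log2 difference of all probe sets from 0.02 to -0.36, and under it NFKBIA, NFKBIE and NFKB1 had log2 differences of -1.04, -1.07 and -0.80 (limma adjusted p = 0.023, 0.045 and 0.046). Each difference was still tested against 0 and not against that shifted median, and 3.22% of all probe sets were called lower. The NFKBIA adjusted p itself, 0.090, passed a threshold of 0.1, which 2.91% of all probe sets passed as lower. The share called lower over the array was 5.81% without dim probe sets, 3.54% with the block and 1.18% without NC1153 replicate 1.

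**Figure D3:**
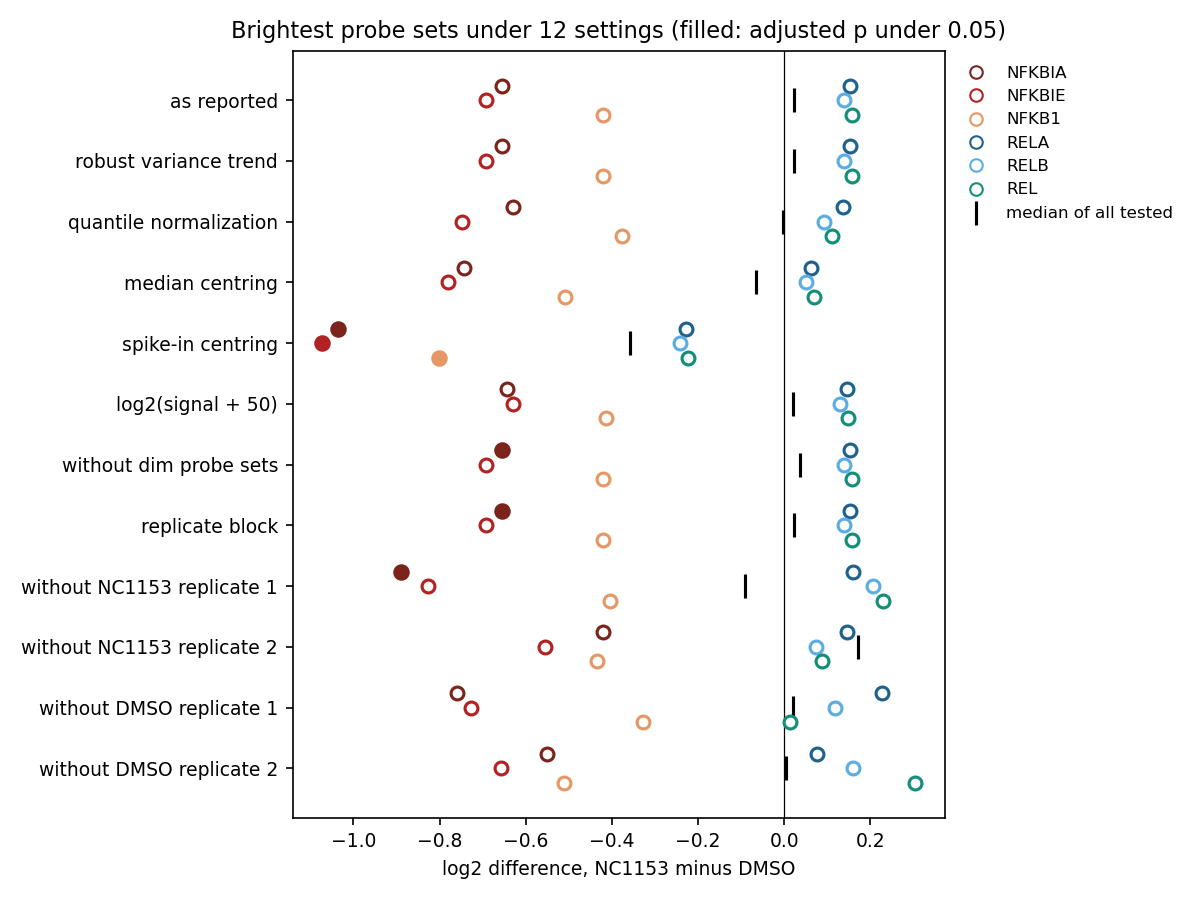
Log2 differences (NC1153 minus DMSO) of the brightest probe sets of NFKBIA, NFKBIE, NFKB1, RELA, RELB and REL under the reported setting and 11 others, filled where the adjusted p was under 0.05, with black bars for the median of all tested probe sets. NFKBIA, NFKBIE and NFKB1 lie below 0 and below the bar in every setting drawn. The robust variance trend, the filter on dim probe sets and the replicate block leave each log2 difference as reported and change its adjusted p only. RELA, RELB and REL turn negative with spike-in centring, where they still lie above the bar at -0.36.

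By the profile over the 4 arrays, 3 genes lay nearest to NFKBIE, the member with the largest absolute difference at its brightest probe set. Likeness was the Euclidean distance between log2 profiles, each centred on its own mean, over 11236 genes with signals above the median. TAGLN2, an actin-binding protein gene, lay at a distance of 0.048, TYW2 at 0.063 and SAFB2 at 0.064. TAGLN2 had 4477 and 3874 with NC1153, against 6654 and 6898 with DMSO, and fell by 0.70 on the log2 scale (limma adjusted p = 0.024). TYW2 and SAFB2 had log2 differences of -0.71 and -0.64 (limma adjusted p = 0.14 and 0.070). As these 3 genes were picked for a profile near that of NFKBIE, log2 differences near its -0.69 follow from the choice. A match over 4 arrays in 2 conditions is a weak description.

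The rest of the pathway was read from 5 lists of 104 genes, of which 94 were measured. Of these, 4 rose and 8 fell, 12.8% against 5.94% of all 19775 genes (3.09% higher and 2.84% lower). Their median log2 difference was 0.07, against 0.0020 over all genes. The lists were drawn with earlier results of these data known, so the shares are a description and do not test the pathway. Signals also differ. Mean signals lay above the median for 10 of 10, 22 of 23, 16 of 18, 11 of 19 and 18 of 26 genes of the lists, in the order below. Over all genes it was 11237 of 19775. The other IkB proteins and nuclear cofactors held 1 call among 10 measured genes (median 0.15). NKRF, which encodes an NF-kB repressing factor, fell to 690 and 756 with NC1153, against 1516 and 1305 with DMSO, by 0.96 on the log2 scale (limma adjusted p = 0.019).

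None of the 23 measured genes of the IKK complex, upstream kinases and adaptors passed, while 5 were higher and 1 lower at an unadjusted p under 0.05, where 10.7% of all genes were higher and 9.66% lower (list median 0.25). The brightest of them were TANK, an adaptor of IKK-related kinases, and BIRC2, a ubiquitin ligase of TNF receptor complexes. Their log2 differences were 0.48 and 0.56 (limma adjusted p = 0.098 and 0.075), and 2 of the 3 other TANK probe sets had the opposite sign. The IKK subunits themselves were added for their role, outside the rule for named genes. CHUK had a log2 difference of -0.64, IKBKB -0.02 and IKBKG 0.35 (limma adjusted p = 0.13, 0.97 and 0.41).

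Among 18 measured A20 partners and other ubiquitin editors, 3 rose and none fell (median 0.09). CYLD encodes a deubiquitinase that, like A20, restrains NF-kB signalling. It had 1899 and 1988 with NC1153, against 927 and 685 with DMSO, a log2 difference of 1.29 (limma adjusted p = 0.0078), and of its 6 other probe sets 4 shared the sign. ZFAND5, which encodes a zinc finger protein related to A20 in its ubiquitin-binding domain, rose by 0.92 (limma adjusted p = 0.019). TAX1BP1, an adaptor of A20 and an autophagy receptor, rose by 0.72 (limma adjusted p = 0.026). Of the other probe sets 1 of 2 for TAX1BP1 and 1 of 4 for ZFAND5 had the opposite sign.

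The list of receptors upstream of the pathway also holds the adaptor gene MYD88 and the kinase gene IRAK1. Its genes moved in both directions, with 1 higher and 3 lower among 19 measured (median -0.19). TNFRSF8, which encodes CD30, fell most: it had 959 and 962 with NC1153, against 4000 and 3856 with DMSO, a log2 difference of -2.03 (limma adjusted p = 0.00045). The TNF receptor genes were opposed. TNFRSF1A had 598 and 549 with NC1153, against 227 and 228 with DMSO, a log2 difference of 1.33 (limma adjusted p = 0.018). TNFRSF1B had 632 and 425 with NC1153, against 1336 and 1060 with DMSO, a log2 difference of -1.20 (limma adjusted p = 0.025). TLR4, a receptor for bacterial lipopolysaccharide, fell by 0.79 (limma adjusted p = 0.048), and all 3 of its other probe sets shared the sign. With a robust variance trend TLR4 did not pass (limma adjusted p = 0.057). Its probe set is also of the _x_at kind, so other transcripts may add to it.

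Of 26 measured NF-kB target genes 4 fell and none rose, with a list median of -0.47. CCR7, a chemokine receptor for homing to lymph nodes, had 782 and 641 with NC1153, against 4417 and 5003 with DMSO, a log2 difference of -2.73 (limma adjusted p = 0.00024). GADD45B, a stress-induced signalling regulator, fell by 1.49, VCAM1, an adhesion molecule, by 1.30 and IER3, an early response gene, by 1.29 (limma adjusted p = 0.029, 0.026 and 0.016). At an unadjusted p under 0.05, 7 targets were lower (9.66% of all genes) and 1 higher (10.7%). Each of these genes also answers to other transcription factors, and the list was drawn with earlier results for CCR7 known.

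Leaving out an array leaves a lone array in its group, assumed to vary like the other pair, with 1 residual degree of freedom. Without either DMSO array limma's prior was estimated as infinite, so each spread there comes from the trend with signal alone, and these fits say little of stability. In these fits CYLD, TNFRSF8, CCR7 and IER3 passed each time, and the other 8 did not. Without NC1153 replicate 1 the limma adjusted p was 0.065 for NKRF, 0.064 for TAX1BP1, 0.083 for TNFRSF1A, 0.094 for TLR4, 0.079 for GADD45B and 0.077 for VCAM1. Without NC1153 replicate 2 it was 0.059 for ZFAND5, 0.061 for TNFRSF1B and 0.075 for TLR4. Without DMSO replicate 1 it was 0.10 for NKRF, 0.057 for TAX1BP1, 0.11 for ZFAND5, 0.35 for TLR4 and 0.15 for GADD45B. Without DMSO replicate 2 it was 0.18 for TAX1BP1, 0.080 for TLR4 and 0.079 for GADD45B. With the replicate number as a block 8 genes of the 5 lists were higher and 12 lower. Over the whole array 3997 probe sets passed with the block, against 2033 as reported. Without a variance trend in the limma model none of the 12 passed, nor did any probe set of the array. With median centring TNFRSF8 and CCR7 alone passed, where 47 probe sets of the whole array did. Spike-in centring ended all 4 rises: CYLD (adjusted p = 0.066), TAX1BP1 (0.28), ZFAND5 (0.24) and TNFRSF1A (0.097).

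**Figure D4:**
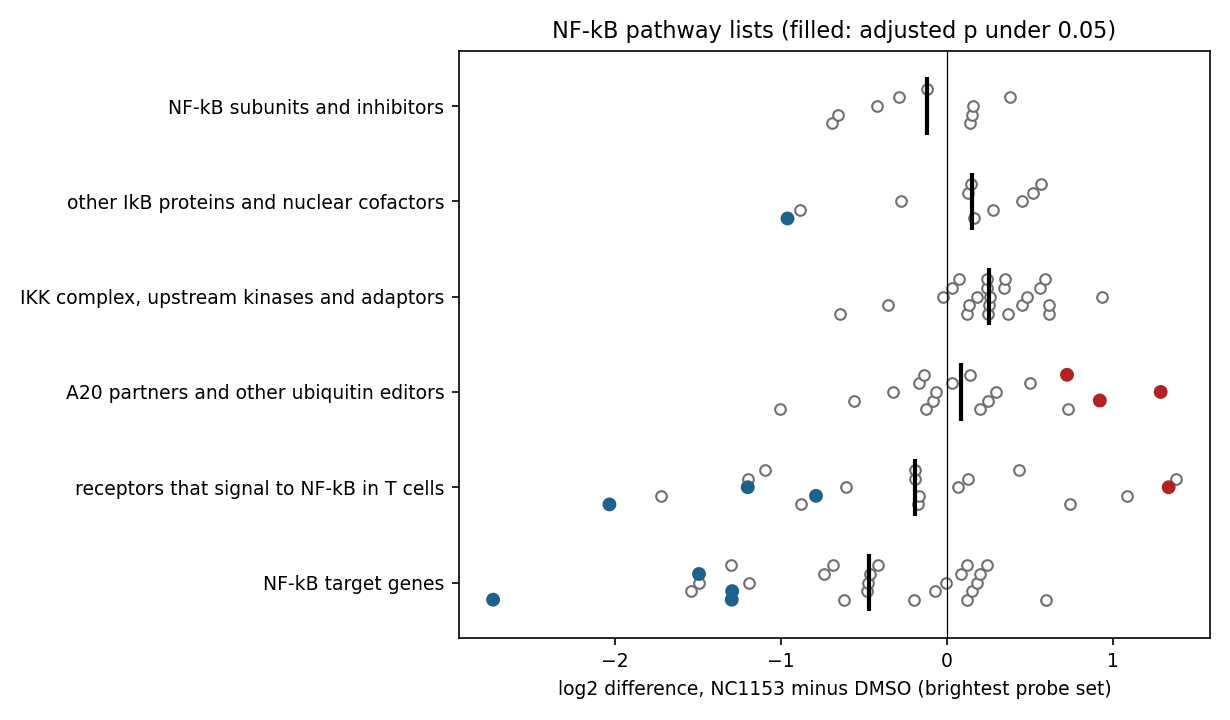
Log2 differences (NC1153 minus DMSO) of the brightest probe set of each measured gene in the 6 NF-kB lists; filled points passed an adjusted p under 0.05 (red higher, blue lower) and black bars are list medians. The members hold no filled point, and the target genes hold 4 filled points, all to the left of 0.

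Markers were checked to see what cells the RNA came from. Of 12 T cell markers 6 had mean signals above the median of all, among them CD2, CD4 and IL2RA, and 6 lay below it, namely CD3D, CD3E, CD3G, CD5, CD28 and LCK. Above it also lay 3 of 5 B cell markers, 1 of 6 monocyte markers and 2 of 4 NK cell markers, so this measure alone does not set the T cell label apart. IL2RB alone among the T cell markers passed the threshold, with a log2 difference of -2.76 (limma adjusted p = 0.00018). At an unadjusted limma p under 0.05, 4 of the 12 were lower (9.66% of all genes), namely IL2RB, CD2, CD4 and LAT, and 0 were higher (10.7%). Summed signals of 12 T cell markers were 27588 to 31908 with NC1153 and 40194 to 41290 with DMSO. Those of 5 B cell markers were 392 to 627 with NC1153 and 507 to 552 with DMSO. Those of 6 monocyte markers were 153 to 252 with NC1153 and 183 to 258 with DMSO, and those of 4 NK cell markers 346 to 454 with NC1153 and 448 to 575 with DMSO. None of these 15 markers passed the test. The T cell sum rests on a few bright genes. Mean signals of IL2RB were 1024 with NC1153 and 6953 with DMSO, and those of CD2 7767 and 11487. IL2RA was level, at 17292 and 17389. Of the 12 T cell markers 4 had positive and 8 negative log2 differences.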

How the data were processed

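RNA of 4 samples of Kit225 cells was hybridised to Affymetrix HG-U133 Plus 2.0 arrays, 2 with NC1153 and 2 with DMSO, grouped by their titles. The deposited values are intensities on a linear scale, scaled by the authors by the factors given per the file headers; the software behind them is not given in the sources used here. A second deposited table holds log2 values that the authors obtained by RMA, and raw p-values from limma, for 2250 non-control probe sets selected by a Storey q-value limit of 0.05, per the file headers. It was used for membership only, since it lists no member probe set.

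Log2 of the signal, with no pseudocount, was modelled in R 4.3.3 with limma 3.58.1 (lmFit, then eBayes with a variance trend) over 54613 probe sets, NC1153 minus DMSO, two-sided, calling a probe set at a Benjamini-Hochberg adjusted p under 0.05. The fit has 2 residual and 7.27 prior degrees of freedom. It was tested on simulated data. Gene names came from the platform annotation, brought up to date through gene identifiers in the RefSeq table (41037 of the 41091 with 1 gene matched); a gene is read from its probe set with the highest mean. Precision is limited by the number of arrays.

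Members, lists and tests were chosen with earlier results of these data known. The rule for named genes took all 9 members, every called gene of the other lists, the 2 brightest of a list with none, and 3 genes by likeness of profile. Equally numbered arrays share a number in their names, per the file headers, but nothing states that it marks a batch, so the block is an alternative and within-replicate differences are given for the members with the lowest p. Other alternatives covered the variance model, scaling, a pseudocount of 50, a filter on dim probe sets, the gene summary, the threshold and leaving out each array.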

Additional observations from a re-analysis of the deposited data

How the results depend on the processing

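Of 235 comparisons of a member probe set with its reported value, 215 kept direction and side of the threshold, 6 passed it and 14 turned sign. Member probe sets called lower, 0 as reported, numbered 3 with spike-in centring and 1 each with the replicate block, after removing dim probe sets and at an adjusted p under 0.1; at an unadjusted p under 0.05 there were 4 lower and 1 higher. By gene the counts were 3, 1 and 1 lower for spike-in centring, dim probe sets left out and the replicate block. Over the probe sets tested in each, the shares called lower were 3.22%, 5.81% and 3.54%. Shares over all genes were not computed for these settings, for leaving out an array or for averaging the probe sets of a gene. The gene counts under them are a description only. Leaving out an array gave 0 to 1 lower, both by probe set and by gene. Part of this agreement was fixed in advance. Dropping the variance trend, making it robust, filtering dim probe sets and adding the block leave each log2 difference as it was, so no sign could turn. Few probe sets of the array passed without the trend (0) or with median centring (47). Spike-in centring turned the signs of RELA 201783_s_at at -0.23 and RELB 205205_at at -0.24. It also turned those of REL 235242_at, 206036_s_at and 206035_at at -0.22, -0.29 and -0.25. Leaving out single arrays gave ranges across 0 of -0.67 to 0.28 for RELA 209878_s_at, -0.033 to 0.22 for REL 206036_s_at, -1.47 to 0.23 for REL 239486_at, -0.93 to 1.19 for REL 206035_at, -0.20 to 1.95 for NFKBIA 231699_at, -0.51 to 0.27 for NFKBIB 214448_x_at and -1.07 to 0.50 for TNFAIP3 202644_s_at. As the mean of all its probe sets, NFKBIA had a log2 difference of 0.11, NFKB2 1.26, RELA -0.02, REL -0.13 and NFKBIB 0.38, and 0 members passed.

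In the 5 other lists, 4 genes were higher and 8 lower as reported. Without a variance trend 0 and 0 passed, as did 0 probe sets of the whole array. Median centring left 0 and 2 and spike-in centring 0 and 11. The filter on dim probe sets left 7 and 11, and the replicate block 8 and 12. Over the whole array 2033 probe sets passed as reported, 47 with median centring and 1938 with spike-in centring. With the filter 3309 of 27306 passed and with the block 3997, so the list counts moved with those of the array. Averaging all probe sets of a gene, an alternative chosen after seeing the data, left 1 higher and 7 lower. Leaving out an array gave 2 to 6 higher and 4 to 7 lower. Within-group deviations of equally numbered arrays correlated with r = 0.055 across all probe sets and 0.12 across the brighter ones; with 2 pairs this does not settle whether the numbers pair the arrays. The RMA alternative gave no value, since no member is listed there. The cause of these shifts was not tested.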
